A study of Mus musculus with 8 samples.

Results

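The 37 genes carried by mouse mitochondrial DNA were followed in platelet RNA, and were taken as every gene in the tables whose symbol starts with mt-, 37 of 55487 genes in all. They are 13 protein genes, 2 ribosomal RNA (rRNA) genes and 22 transfer RNA (tRNA) genes. Platelets came from 4 mice labelled Dnmt3a+/-, in which 1 allele of the DNA methyltransferase gene Dnmt3a is given as lost, and 4 WT littermates. All 8 mice were males aged 13 weeks, no treatment is named, and the labels do not say how the allele was made. Blood was taken from the heart, platelets were spun down, and cells bearing Ter119 or CD45 were removed with beads. Stranded libraries were then made from polyadenylated RNA, with 1 library per mouse.

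Mitochondrial DNA is a small circle that is transcribed along both strands into long precursors. The tRNAs that lie between the other genes are cut out, which frees the mRNAs and rRNAs between them. Most of the mRNAs, and with shorter tails the rRNAs, are then polyadenylated, so they can enter a library of polyadenylated RNA. The 13 proteins are all core subunits of the respiratory chain or of ATP synthase, and the rRNAs and tRNAs serve their translation inside the organelle. Platelets have no nucleus but keep mitochondria with their own DNA.

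Total estimated counts were 15620972 to 22160394 in the Dnmt3a+/- libraries and 15185218 to 17398666 in the WT libraries. Dnmt3a was at 9.96, 11.5, 24.2 and 19.5 CPM (a gene's counts per 1000000 counts of the TMM-scaled library total) in the libraries labelled Dnmt3a+/- replicates 1 to 4, against 21.1, 22.1, 19.8 and 18.2 CPM in WT replicates 1 to 4. Replicates 3 and 4 of the mutant label therefore lay within or above the WT range, and every direction below is between labels. Values per library are given in the order of replicates 1 to 4 throughout. The 12 platelet marker genes took 4.48% to 5.10% of counts in the Dnmt3a+/- libraries and 4.13% to 4.91% in the WT libraries, lowest in WT replicate 3. In bulk RNA, fewer cells of a type and less RNA per cell cannot be told apart, and the same holds for mitochondria per platelet and RNA per mitochondrion. One library, WT replicate 3, stood apart for the mitochondrial protein genes, so results are given with and without it.

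The mitochondrially encoded genes took 19.0%, 17.6%, 17.6% and 18.5% of all counts in the Dnmt3a+/- libraries, against 16.7%, 17.3%, 24.8% and 17.8% in the WT libraries. The means were 18.2% ± 0.68 and 19.1% ± 3.79 (SD, n = 4 each), and the groups overlapped. Without WT replicate 3 the WT mean was 17.2% ± 0.55 (SD, n = 3). Counting error was small beside this spread, since no 95% Wilson interval of a library share reached beyond 0.021 percentage points on either side, for counting error alone.

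The 2 rRNAs made up most of this RNA, and their share varied little. They took 14.1%, 13.0%, 14.0% and 14.1% of counts in the Dnmt3a+/- libraries, against 12.8%, 13.0%, 13.6% and 12.3% in the WT libraries. The 13 protein genes took 4.89%, 4.58%, 3.65% and 4.31% in the Dnmt3a+/- libraries, against 3.87%, 4.34%, 11.2% and 5.43% in the WT libraries. WT replicate 3 was far above the other 7 libraries in the mRNAs, while its rRNA share was the highest of the WT libraries and within the range of the Dnmt3a+/- libraries. Protein-gene counts per rRNA count were 0.348, 0.353, 0.261 and 0.305 in the Dnmt3a+/- libraries, against 0.303, 0.335, 0.826 and 0.441 in the WT libraries. WT replicate 3 had the highest ratio and WT replicate 4 the next, and the other 6 libraries lay between 0.261 and 0.353.

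**Figure D1:**
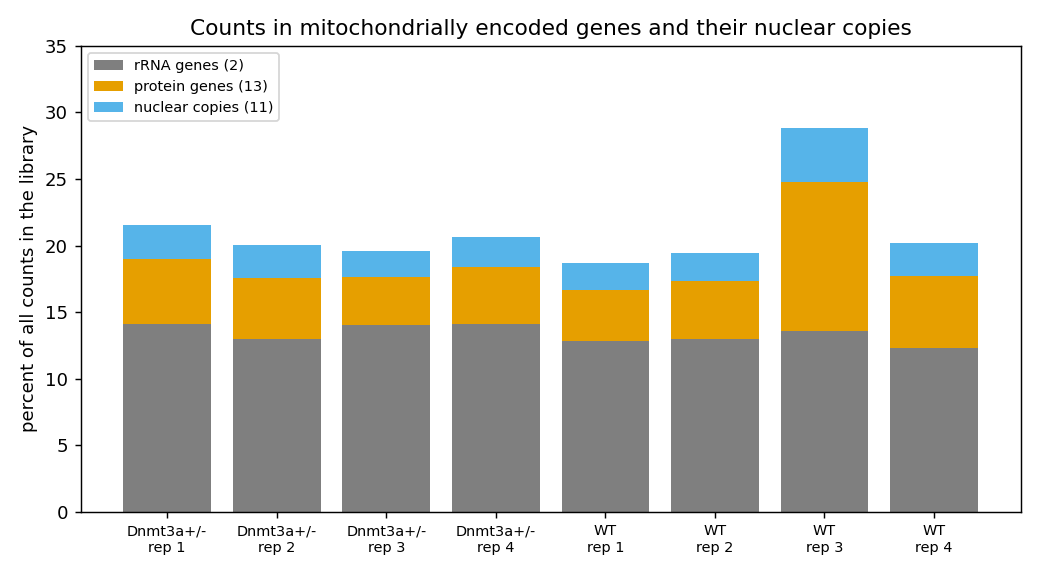
Percent of each library's counts in the 2 mitochondrial rRNA genes, the 13 protein genes and the 11 nuclear copies of mitochondrial genes, stacked per library with the Dnmt3a+/- libraries on the left and the WT libraries on the right. The protein-gene segment of WT replicate 3 is 11.2%, above the 3.65% to 5.43% of the 7 others, while the rRNA segment stays between 12.3% and 14.1%.

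The 22 tRNA genes were listed at 0 counts in all 8 libraries. They encode tRNAs of 59 to 75 bases, the shortest and longest of which are mt-Ts2 (a serine tRNA, chrM:11613-11671, plus strand) and mt-Tl1 (a leucine tRNA, chrM:2676-2750, plus strand), printed here with no capitals to show how short these products are.
mt-Ts2: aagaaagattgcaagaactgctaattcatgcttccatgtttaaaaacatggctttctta
mt-Tl1: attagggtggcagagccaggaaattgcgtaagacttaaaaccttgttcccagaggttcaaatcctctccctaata
This zero was shared by nearly all annotated genes of that size. Of 2447 genes whose longest transcript has at most 100 bases, 2 had any count in any library (0.0817%), against 44.1% of the genes over 500 bases, and no gene under 100 bases had a count. By counting error alone a zero allows up to 3 counts, a share of at most 1.98e-05% in the shallowest library. Since no product of this size was counted from any gene, the tRNA level was not measurable in these libraries.

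A second property of the genome bears on every value that follows. Mammalian nuclear DNA holds inserted copies of mitochondrial DNA, and where such a copy is annotated as a gene, reads from the mitochondrial gene fit both. Alignment of the member transcripts to all GENCODE M21 transcripts found 11 such copies, at 95% identity or more over at least 200 bases. Of these, 7 lie together on chr1:24611535-24616197 (GRCm38, minus strand) in the same order as their sources on the mitochondrial genome. They are copies of mt-Co1 (Gm29216), mt-Co2 (Gm28661), mt-Atp6 (Gm10925), mt-Co3 (Gm28437), mt-Nd3 (Gm28438), mt-Nd4l (Gm10222) and mt-Nd4 (Gm28439), all annotated as unprocessed pseudogenes. The copies of mt-Co2, mt-Atp6, mt-Co3, mt-Nd4l and mt-Nd4 are identical to their sources along their whole annotated length. The copy of mt-Nd3 differs by the single substitution T3C, with the mitochondrial base first and positions counted from the first base of the gene, and it lacks the final TAA. The first bases of both are printed to show how little separates them, with the differing base in capitals (mt-Nd3 chrM:9459-9548, plus strand; Gm28438 chr1:24613030-24613119, minus strand; GRCm38, GENCODE M21 transcripts, as for all sequences here).
mt-Nd3, first 90 bases: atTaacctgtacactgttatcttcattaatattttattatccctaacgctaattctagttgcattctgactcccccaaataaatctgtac
Gm28438, first 90 bases: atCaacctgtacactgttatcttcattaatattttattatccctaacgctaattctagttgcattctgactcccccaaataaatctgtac
For mt-Atp6 and Gm10925 the shared stretch is identical, and the annotated ends alone differ, by the stop codon in capitals (chrM:8548-8607, plus strand; chr1:24613974-24614030, minus strand).
mt-Atp6, last 60 bases: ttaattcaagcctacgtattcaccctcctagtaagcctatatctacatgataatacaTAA
Gm10925, last 57 bases: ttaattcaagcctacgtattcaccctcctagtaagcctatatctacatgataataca

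Large shares of the counts were listed under these nuclear copies. The copies together took 2.54%, 2.43%, 1.98% and 2.22% of all counts in the Dnmt3a+/- libraries, against 2.01%, 2.14%, 4.01% and 2.47% in the WT libraries. They moved with the protein genes and were highest in WT replicate 3. Of the 11, 6 had 10 or more counts in some library, all on chromosome 1. The copies on chromosomes 2 and 13 (Gm13339, Gm13340, Gm13341 and Gm4076) had 0 to 5 counts, and Gm28439 had 0 although it matches 876 bases of mt-Nd4 exactly.

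For mt-Atp6, a subunit of the proton channel of ATP synthase, the copy held 89.9%, 91.6%, 88.2% and 94.0% of the counts of the pair in the Dnmt3a+/- libraries, against 89.3%, 90.4%, 89.4% and 89.7% in the WT libraries. The value listed for mt-Atp6 is therefore a small part of the pair in every library. For mt-Co3, a core subunit of cytochrome c oxidase, the copy held 75.8%, 75.4%, 74.9% and 74.6% in the Dnmt3a+/- libraries, against 59.9%, 73.1%, 64.2% and 74.3% in the WT libraries. These values did not overlap between the labels, in 1 of the 6 pairs with counts, but the gap was narrow. No rate over all genes was computed for shares of this kind. In CPM, the groups did not overlap in 2.54% of the 7362 genes tested. The Wilson intervals of its nearest libraries overlapped, at 74.45% to 74.84% in Dnmt3a+/- replicate 4 and 74.06% to 74.50% in WT replicate 4. For mt-Nd3, a complex I subunit, the copy held 76.3%, 90.7%, 82.0% and 93.9% in the Dnmt3a+/- libraries, against 55.7%, 69.5%, 87.8% and 87.9% in the WT libraries, with overlap.

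The division also varied across libraries for mt-Nd4l, the smallest mitochondrial complex I gene. Its copy held 27.1%, 19.5%, 13.5% and 1.26% of the pair in the Dnmt3a+/- libraries, against 1.78%, 21.1%, 26.0% and 31.5% in the WT libraries. For mt-Co2 the copy held 51.0% to 65.8% in the Dnmt3a+/- libraries and 50.5% to 60.4% in the WT libraries, and for mt-Co1, whose copy matches 483 of its 1545 bases, it held 15.3% to 18.7% in the Dnmt3a+/- libraries and 8.75% to 20.8% in the WT libraries. No Wilson interval of these shares reached beyond 2.4 percentage points on either side. The differences between libraries in mt-Nd3 and mt-Nd4l therefore exceed counting error alone. These intervals leave out the error of dividing reads between identical or nearly identical sequences, which was not measured. Nuclear transcription of the copies and division of mitochondrial reads between identical sequences cannot be told apart in these tables.

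**Figure D2:**
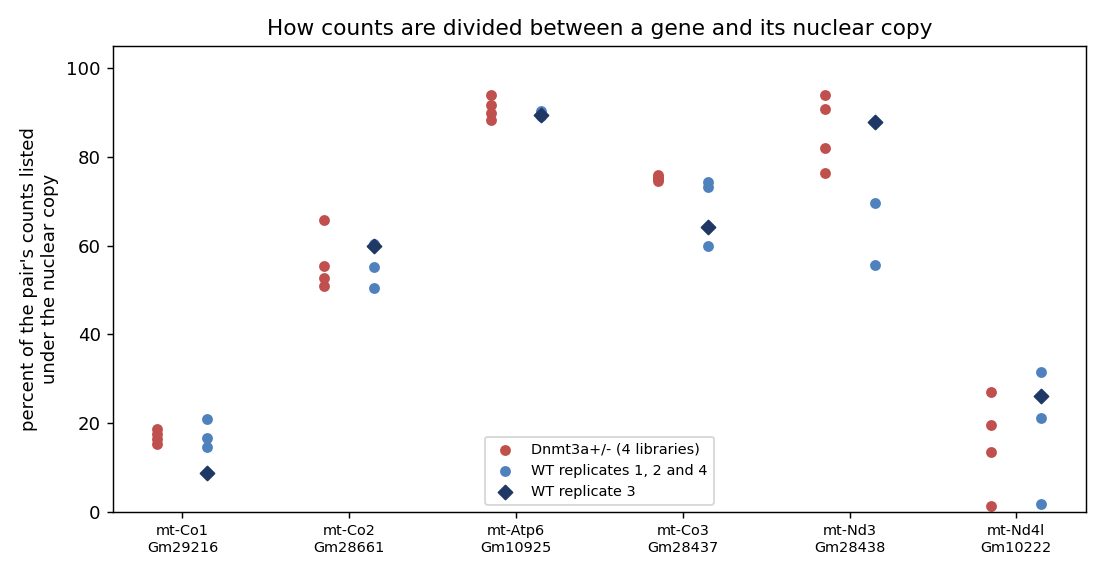
Percent of the counts of each gene and its nuclear copy that were listed under the copy, per library, with Dnmt3a+/- libraries left of WT libraries for each pair. The share stays between 88.2% and 94.0% for mt-Atp6 but runs from 1.26% to 31.5% for mt-Nd4l.

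The 2 rRNAs, mt-Rnr1 of the small and mt-Rnr2 of the large mitochondrial ribosomal subunit, have no copy under this rule. The gene mt-Rnr1 (chrM:70-1024, plus strand) had 53180, 52360, 55740 and 54640 CPM in the Dnmt3a+/- libraries, against 46400, 43120, 59890 and 43330 CPM in the WT libraries. All 4 Dnmt3a+/- values lay above WT replicates 1, 2 and 4 and below WT replicate 3. Its log2 fold change was 0.16 (SE 0.13, edgeR adjusted p = 0.998), and 0.29 (SE 0.11, edgeR adjusted p = 0.994) without WT replicate 3. In TPM (the deposited length-corrected share of transcripts), mt-Rnr1 stood at 70670, 73430, 76190 and 78950 in the Dnmt3a+/- libraries, against 61780, 63970, 70370 and 60480 in the WT libraries, and here the groups did not overlap. Such separation was found in 1 of the 15 members with counts and in 1.82% of the 7362 genes tested, and limma on log2(TPM + 1) did not call it.

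The gene mt-Rnr2 (chrM:1094-2675, plus strand) had 91760, 75390, 85050 and 81450 CPM in the Dnmt3a+/- libraries, against 84000, 77960, 88140 and 78770 CPM in the WT libraries. The groups overlapped along their whole range, with a log2 fold change of 0.02 (SE 0.12, edgeR adjusted p = 0.998). The ratio of mt-Rnr2 to mt-Rnr1 counts was 1.73, 1.44, 1.53 and 1.49 in the Dnmt3a+/- libraries, against 1.81, 1.81, 1.47 and 1.82 in the WT libraries. WT replicate 3 lay among the Dnmt3a+/- libraries in this ratio, so the groups overlapped, and the other 3 WT libraries lay above all 4 of them. In CPM, 4.29% of the 7362 genes tested did not overlap once WT replicate 3 was left out. No such rate was computed for ratios.

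The genes of cytochrome c oxidase (complex IV), which passes electrons to oxygen, were among the most abundant mRNAs. Its catalytic subunit mt-Co1 (chrM:5328-6872) had 20240, 15020, 12350 and 14240 CPM in the Dnmt3a+/- libraries, against 15420, 13670, 45670 and 19290 CPM in the WT libraries. Its copper-binding subunit mt-Co2 (chrM:7013-7696) had 3540, 4840, 3938 and 4121 CPM in the Dnmt3a+/- libraries, against 3444, 3679, 6726 and 5090 CPM in the WT libraries. The third subunit, mt-Co3 (chrM:8607-9390), had 2162, 2346, 1990 and 2135 CPM in the Dnmt3a+/- libraries, against 2702, 2023, 6594 and 2506 CPM in the WT libraries. In all 3 genes WT replicate 3 was the highest library, and the remaining WT values overlapped the Dnmt3a+/- values. That library was at 3.04 times the median of the other 7 for mt-Co1, 3.05 times for mt-Co3 and 1.71 times for mt-Co2. With nuclear copies included it was at 2.77 times for mt-Co1, 2.16 times for mt-Co3 and 1.79 times for mt-Co2.

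The ATP synthase genes overlap each other. The gene mt-Atp8 (chrM:7766-7969, plus strand) encodes a small membrane subunit, and its last 43 bases, in capitals, are also the first bases of mt-Atp6 (chrM:7927-8607). It is printed because reads from that stretch belong to both genes.
mt-Atp8: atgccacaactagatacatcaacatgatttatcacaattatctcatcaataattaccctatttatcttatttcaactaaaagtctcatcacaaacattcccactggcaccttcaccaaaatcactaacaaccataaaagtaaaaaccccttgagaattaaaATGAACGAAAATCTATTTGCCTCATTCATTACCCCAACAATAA
The gene mt-Atp8 had 744.2, 574, 505.5 and 485 CPM in the Dnmt3a+/- libraries, against 579, 728, 2151 and 683 CPM in the WT libraries. The gene mt-Atp6 had 921, 758, 888 and 464 CPM in the Dnmt3a+/- libraries, against 851, 746, 1903 and 968 CPM in the WT libraries. WT replicate 3 was again the highest for both genes, and the other libraries overlapped. The gene mt-Atp6 together with its copy had 9097, 8932, 7518 and 7825 CPM in the Dnmt3a+/- libraries, against 7878, 7837, 17990 and 9389 CPM in the WT libraries, so Dnmt3a+/- replicate 4, lowest in mt-Atp6 alone, lay among the other libraries in the pair.

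Complex III, which hands electrons to cytochrome c, has a single mitochondrially encoded subunit, cytochrome b. Its gene mt-Cytb (chrM:14145-15288) had 9173, 9201, 7486 and 8449 CPM in the Dnmt3a+/- libraries, against 7602, 8043, 20420 and 10160 CPM in the WT libraries. WT replicates 3 and 4 were above all Dnmt3a+/- libraries, and WT replicates 1 and 2 lay within their range. It is one of 3 protein genes, with mt-Co3 and mt-Nd4, whose annotated end has no complete stop codon. Their last 31 bases end in a single T, in capitals, which the poly(A) tail turns into TAA (chrM:15258-15288, chrM:9360-9390 and chrM:11514-11544, all plus strand), and they are shown since their mRNAs need that tail to be translated to the proper end.
mt-Cytb, last 31 bases: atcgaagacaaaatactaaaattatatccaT
mt-Co3, last 31 bases: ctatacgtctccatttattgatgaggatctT
mt-Nd4, last 31 bases: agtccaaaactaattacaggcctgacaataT

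Complex I, the entry point for electrons from NADH, has 7 mitochondrially encoded subunits. The gene mt-Nd1 (chrM:2751-3707) had 1973, 1542, 1099 and 1470 CPM in the Dnmt3a+/- libraries, against 929.6, 1500, 6535 and 2085 CPM in the WT libraries. The gene mt-Nd2 (chrM:3914-4951) had 1715, 1150, 854 and 1133 CPM in the Dnmt3a+/- libraries, against 761, 1485, 7800 and 2211 CPM in the WT libraries. Both are parts of the membrane arm, and both were lowest in WT replicate 1 and highest in WT replicate 3. WT replicate 3 was at 4.36 times the median of the other 7 libraries for mt-Nd1 and at 6.78 times for mt-Nd2.

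The complex I genes mt-Nd4 and mt-Nd5 moved less. The gene mt-Nd4 (chrM:10167-11544) had 6776, 6747, 5450 and 6044 CPM in the Dnmt3a+/- libraries, against 5150, 5989, 15560 and 7303 CPM in the WT libraries. The gene mt-Nd5 (chrM:11742-13565) had 2638, 2504, 1885 and 2463 CPM in the Dnmt3a+/- libraries, against 1629, 2245, 7141 and 3005 CPM in the WT libraries. For both, WT replicates 3 and 4 were above all Dnmt3a+/- libraries and WT replicate 1 was below them.

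The gene mt-Nd4l (chrM:9877-10173), which overlaps mt-Nd4 by 7 bases, had 464, 377, 319 and 434 CPM in the Dnmt3a+/- libraries, against 351, 385, 1589 and 467 CPM in the WT libraries. The gene mt-Nd3 had 58.7, 15.4, 19.7 and 9.90 CPM in the Dnmt3a+/- libraries, against 47.6, 53.3, 110.9 and 27.5 CPM in the WT libraries. Dnmt3a+/- replicate 1 lay among the WT libraries for mt-Nd3, and Dnmt3a+/- replicates 2 to 4 lay below all of them. The gene mt-Nd3 together with its copy had 246, 164, 109 and 164 CPM in the Dnmt3a+/- libraries, against 106, 176, 909 and 229 CPM in the WT libraries. All 4 Dnmt3a+/- values then lay within the WT range.

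The gene mt-Nd6 (chrM:13552-14070, minus strand) is the single protein gene read from the other strand, and in human cells its mRNA is known to lack a poly(A) tail. It had 8.11, 5.76, 4.79 and 4.99 CPM in the Dnmt3a+/- libraries, against 3.31, 8.60, 49.4 and 11.2 CPM in the WT libraries. WT replicate 3, at 788 counts, stood at 8.59 times the median of the other 7 libraries. This was the highest such ratio among the 15 members with counts, and WT replicate 1 was the lowest library for mt-Nd6. Its last 14 bases overlap the end of mt-Nd5 on the other strand, and whether the counting used strand is not stated, so reads from either strand there cannot be told apart. Its sequence is rich in G (28.1%) and low in A (22.2%), where the 12 plus-strand protein genes have 5.9% to 16.1% G and 29.5% to 40.7% A. The opening bases of mt-Nd6 and, for contrast, of the plus-strand gene mt-Nd2 are printed to show that difference, with no capitals (chrM:14011-14070, minus strand; chrM:3914-3973, plus strand).
mt-Nd6, first 60 bases: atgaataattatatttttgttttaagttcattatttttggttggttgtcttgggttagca
mt-Nd2, first 60 bases: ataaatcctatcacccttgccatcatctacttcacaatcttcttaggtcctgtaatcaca

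**Figure D3:**
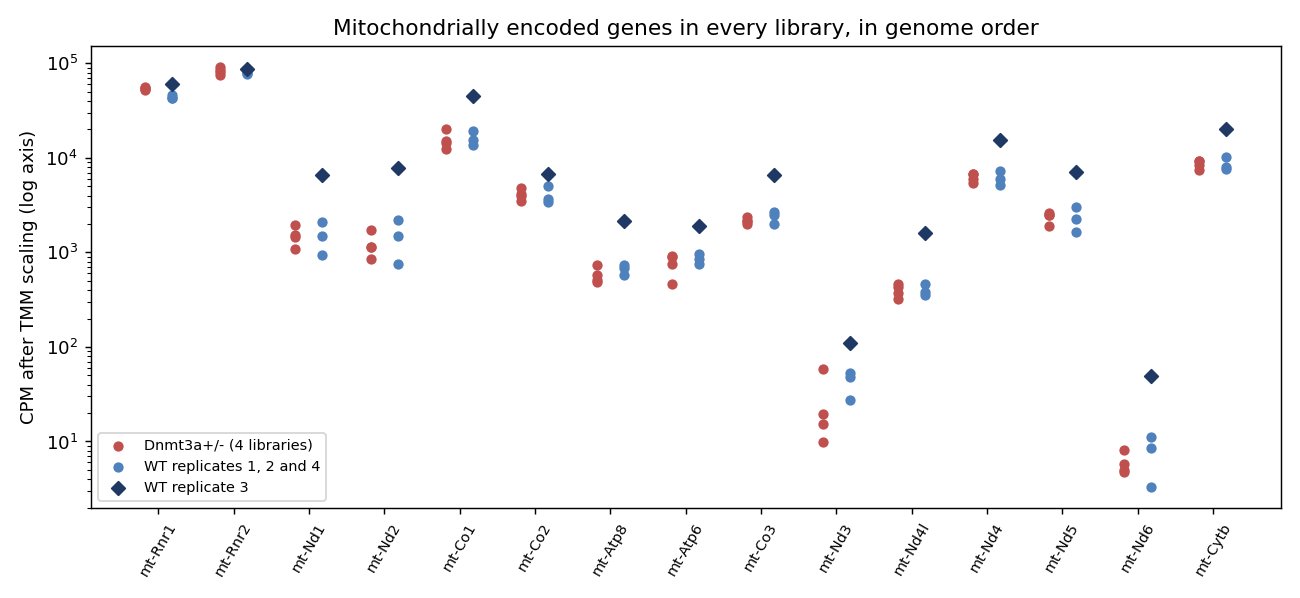
CPM after TMM scaling, on a log axis, of the 15 mitochondrially encoded genes with counts, in the order of the mitochondrial genome, with one point per library and Dnmt3a+/- libraries left of WT libraries. The diamond of WT replicate 3 is the highest point for 14 of the 15 genes, and the points of the other 7 libraries overlap between the labels for every gene but mt-Rnr1.

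The concentration in a single library can be set against the whole transcriptome. WT replicate 3 was the highest of the 8 libraries in 14 of the 15 members with counts, and in 13 of 13 protein genes, against 13.2% of the 7362 genes tested. It was over 2 times the median of the other 7 in 12 of 15 members, against 4.28% of genes. The library was singled out on these same genes, so these counts describe it and are not a test. The members are cut from shared precursors and are not independent of each other. Among the protein genes, complex I took a larger part there. With nuclear copies included, complex I made up 18.3%, 18.2%, 17.2% and 18.6% of the protein-gene counts in the Dnmt3a+/- libraries, against 14.9%, 19.6%, 24.2% and 19.8% in the WT libraries. WT replicate 3 was highest and WT replicate 1 lowest in this share.

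Nuclear genes of the same protein complexes did not share that excess. The 81 nuclear oxidative phosphorylation subunits took 0.581%, 0.519%, 0.530% and 0.532% of the counts outside the members and their copies in the Dnmt3a+/- libraries, against 0.559%, 0.527%, 0.563% and 0.545% in the WT libraries. The 79 mitochondrial ribosomal protein genes took 0.0216% to 0.0241% in the Dnmt3a+/- libraries and 0.0219% to 0.0254% in the WT libraries, with 0.0228% in WT replicate 3. Both lists placed WT replicate 3 inside the range of the other libraries.

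Markers of other cell types were also read in each library. The 13 hepatocyte markers took 0.0110%, 0.000749%, 0.0152% and 0.000758% of counts in the Dnmt3a+/- libraries, against 0.00237%, 0.0395%, 0.165% and 0.134% in the WT libraries, so they were highest in WT replicates 3 and 4. The 10 heart muscle markers were at most 0.000704% in the Dnmt3a+/- libraries and 0.000219% in the WT libraries, with Nppa at 0 in all libraries. Erythroid markers took 0.318% to 0.486% in the Dnmt3a+/- libraries and 0.203% to 2.03% in the WT libraries, and were highest in WT replicate 1. Adipocyte markers were at most 0.00159% in the Dnmt3a+/- libraries and 0.00269% in the WT libraries. Monocyte markers were at most 0.00115% in the Dnmt3a+/- libraries and 0.000758% in the WT libraries, and T and NK cell markers 0.000999% and 0.00101%. B cell markers were at most 0.000762% and 0.000287%, and neutrophil markers 3.16e-05% and 0.000187%, in the same order. Of 10 neutrophil markers 2 (Camp and Elane) were at 0 in all libraries, and of 10 T and NK cell markers 2 (Cd3e and Cd3g). Each of the 8 monocyte and 8 B cell markers had counts. Ptprc, which encodes CD45, was at 4 to 27 counts. The part of these markers in the mitochondrial values was not tested.

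Compared by length, the members spanned more than 3 orders of magnitude. Levels in TPM, with nuclear copies included, are given as the mean ± SD over the 7 libraries other than WT replicate 3. The rRNAs led, with mt-Rnr1 at 69350 ± 7329 TPM and mt-Rnr2 at 64230 ± 3047 TPM. The mRNAs of complex IV and ATP synthase followed, with mt-Co1 at 23170 ± 3301, mt-Co2 at 19520 ± 1876 and mt-Atp6 at 17710 ± 1582 TPM. Behind them were mt-Co3 at 14890 ± 2038 and mt-Atp8 at 11420 ± 1900 TPM. The mt-Co1 level includes the TPM of a copy much shorter than the gene, and mt-Co1 alone was at 9787 to 15520 TPM in these libraries. Next came mt-Cytb at 9695 ± 1153 TPM and the complex I genes mt-Nd4 at 5677 ± 746, mt-Nd4l at 3726 ± 982, mt-Nd1 at 2107 ± 583, mt-Nd2 at 1684 ± 652, mt-Nd5 at 1571 ± 323 and mt-Nd3 at 974 ± 307 TPM. The gene mt-Nd6 was last at 20.4 ± 8.5 TPM.

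Neighbours in this order were separated by more than their SD in 5 of 14 steps. These steps were mt-Rnr2 to mt-Co1, mt-Cytb to mt-Nd4, mt-Nd4 to mt-Nd4l, mt-Nd4l to mt-Nd1 and mt-Nd3 to mt-Nd6, while within the run of mt-Co1, mt-Co2, mt-Atp6, mt-Co3, mt-Atp8 and mt-Cytb the ranges of neighbours overlapped. Some positions depended on the length correction in the deposited TPM. Relative to mt-Rnr1, it raised mt-Atp8 by 2.51 to 3.08 times over a plain division by gene length, and mt-Nd4l by 1.58 to 1.76 times. By counts per kilobase mt-Atp8 ranked 9 in place of 7. By that measure the leading mRNAs were mt-Co2 at 13710, mt-Atp6 at 12400 and mt-Co1 at 12390 CPM per kilobase. There mt-Co1 ranked 5 in place of 3. The length correction itself lowered mt-Co1, to 0.93 to 0.94 times relative to mt-Rnr1. Its higher place in TPM came from adding the TPM of its 492-base copy to that of the 1545-base gene. With the copy, mt-Co1 was at 18800 to 28090 TPM in the libraries other than WT replicate 3, against 9787 to 15520 TPM alone.

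**Figure D4:**
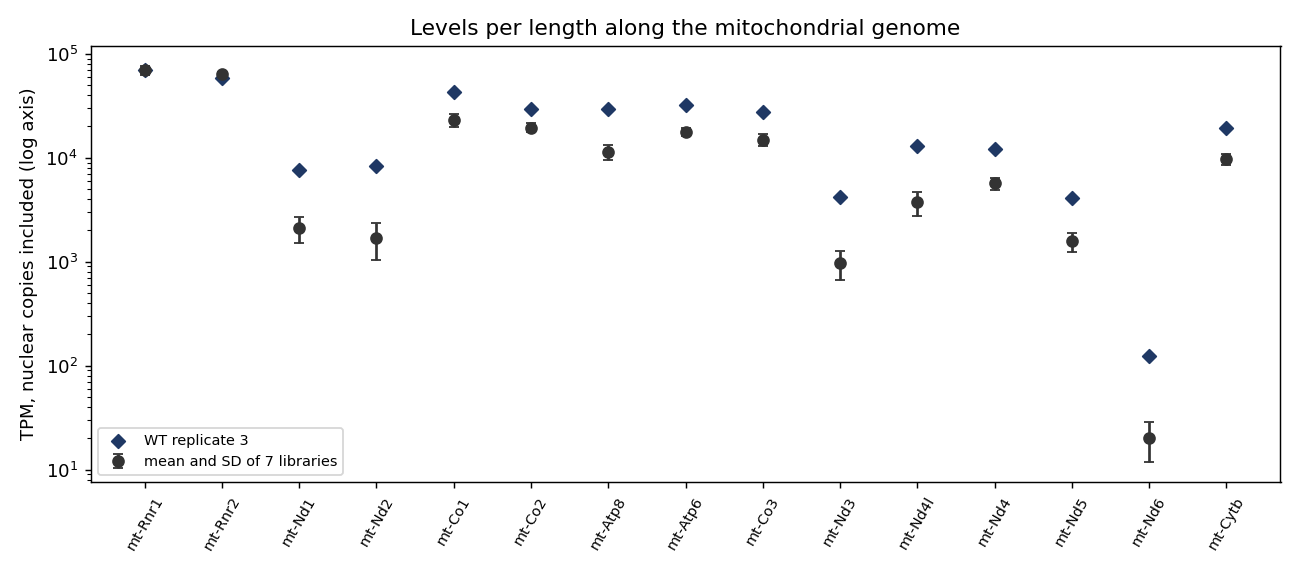
TPM on a log axis of each mitochondrially encoded gene together with its nuclear copies, in the order of the mitochondrial genome, as mean and SD of 7 libraries, with the library of WT replicate 3 as a diamond. The rRNAs are near 69350 and 64230 TPM and mt-Nd6 is at 20.4 TPM, and the diamond lies above the mean for all 13 protein genes. The mt-Co1 level includes the TPM of a copy of 492 bases, where the gene has 1545.

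Between the labels, no mitochondrially encoded gene passed the test with all 8 libraries and the filter on low counts. By edgeR, 0 of the 15 members with counts were called at an adjusted p under 0.05, against 0.0% of the 7362 genes tested. DESeq2 called 0 members, against 0.0812% of 18462 genes, and limma on log2(TPM + 1) called 0 members, against 0.0% of genes. At an unadjusted p under 0.05, edgeR gave 4 of 15 members, against 4.92% of all genes. All 4 were lower in the Dnmt3a+/- libraries, against 3.19% of genes in that direction. These were mt-Nd6 (log2 fold change -1.62, SE 0.65), mt-Nd2 (-1.34, SE 0.57), mt-Nd3 (-1.21, SE 0.54) and mt-Atp8 (-0.84, SE 0.37), with edgeR adjusted p of 0.963 for mt-Nd6 and 0.986 for the other 3.

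The fold changes of the other protein genes were all negative as well. They were -0.86 for mt-Nd1, -0.81 for mt-Nd4l, -0.68 for mt-Co3, -0.60 for mt-Co1, -0.56 for mt-Atp6, -0.56 for mt-Nd5, -0.44 for mt-Nd4, -0.43 for mt-Cytb and -0.20 for mt-Co2. In all, 13 of 15 members had a negative fold change, with a median of -0.60, against 51.0% of all genes and a median of -0.005. These values leave out the nuclear copies. With copies summed and all 8 libraries, values were -1.055 for mt-Nd3, -0.94 for mt-Nd4l, -0.54 for mt-Co1 and -0.37 for mt-Atp6. They were -0.28 for mt-Co3 and -0.22 for mt-Co2, and the median over the members was -0.54. In CPM, 0 of 15 members had groups that did not overlap, against 2.54% of genes, and without WT replicate 3 1 of 15, mt-Rnr1, against 4.29%. The negative lean rested on a single library. Without WT replicate 3, 9 of 15 members were negative, against 50.3% of genes, and the median over the members was -0.0075.

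**Figure D5:**
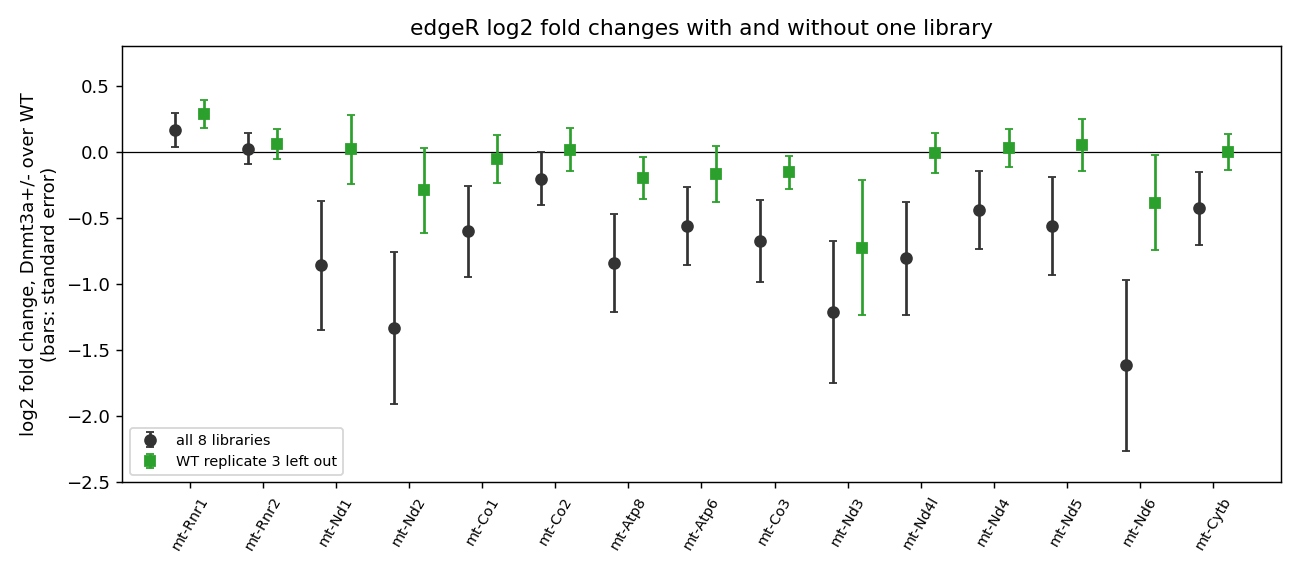
Log2 fold change of each mitochondrially encoded gene in Dnmt3a+/- over WT by edgeR, in all 8 libraries (circles) and with WT replicate 3 left out (squares). Bars are the standard error derived from the F statistic. All 13 protein genes are below 0 with 8 libraries, from -1.62 for mt-Nd6 to -0.20 for mt-Co2, and without that library most squares lie near 0. Counts of nuclear copies are not included.

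The call for a few members depended on the filter for low counts. Without the filter, edgeR called 3 of the 15 members, all lower in the Dnmt3a+/- libraries, against 1.35% of 18462 genes. They were mt-Nd6 (-1.59, edgeR adjusted p = 0.0135), mt-Nd2 (-1.31, edgeR adjusted p = 0.0200) and mt-Nd3 (-1.18, edgeR adjusted p = 0.0448). Without both the filter and WT replicate 3, 1 member was called, mt-Nd3 at -0.69 (edgeR adjusted p = 0.00517), against 1.41% of genes. When the counts of mt-Nd3 and Gm28438 were summed in that same fit, its log2 fold change was 0.03 (edgeR adjusted p = 0.979), and 0 members were called, against 1.40% of genes. With copies summed, no filter and all 8 libraries, 3 members were called against 1.39% of genes, with mt-Atp8 (-0.82, edgeR adjusted p = 0.0463) in place of mt-Nd3. No copy of mt-Atp8 was found, and without summing its value was nearly the same (-0.82, edgeR adjusted p = 0.0538). Leaving out WT replicate 1 instead, with the filter kept, called 0 members against 1.75% of genes. The 1 call that did not rest on WT replicate 3 thus depended on how counts were divided between mt-Nd3 and its nuclear copy.

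Nuclear genes that make and keep mitochondrial RNA were mostly near the limit of detection. Polrmt, the mitochondrial RNA polymerase, had 0 to 2 counts per library, and Tfam, which packages mitochondrial DNA and starts its transcription, had 0 to 14 counts, so neither was tested. Slirp, a partner of the mRNA-stabilising protein Lrpprc, had 1 to 17 counts and was not tested either. Lrpprc itself was at 2.31, 3.10, 2.18 and 3.04 CPM in the Dnmt3a+/- libraries, against 1.85, 2.98, 2.57 and 3.72 CPM in the WT libraries. Its log2 fold change of -0.06 (SE 0.25, edgeR adjusted p = 0.998) was smaller than the spread between replicates.

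By edgeR, 0 tested genes were called in any of the 9 pathway lists. The same fit called 0.0% of the 7362 genes tested, so this count does not set the lists apart. Of all genes tested, 51.0% had a negative fold change, with a median of -0.005. Of the list for transcription of mitochondrial DNA, 4 of 12 genes were tested, and all 4 had positive fold changes (median 0.25). Of the lists for RNA processing, 3 of 22 were tested (0 positive, 3 negative, median -0.10), and for RNA stability 7 of 18 (1 positive, 6 negative, median -0.11). For replication of mitochondrial DNA 7 of 17 were tested (1 positive, 6 negative, median -0.25), and for mitochondrial aminoacyl-tRNA synthetases 7 of 23 (3 positive, 4 negative, median -0.14). For regulators of biogenesis 4 of 8 were tested (2 positive, 2 negative, median 0.10), and for mitophagy 9 of 12 (5 positive, 4 negative, median 0.01). Among mitochondrial ribosomal proteins 34 of 79 were tested (15 positive, 19 negative, median -0.03), and among nuclear oxidative phosphorylation subunits 71 of 81 (29 positive, 42 negative, median -0.04).

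Over the 9 lists, 3 of 146 tested genes had an unadjusted p under 0.05 (2.05%), against 4.92% of all genes. Nsun2, an RNA cytosine methyltransferase, was at 0.462, 0.929, 0.971 and 0.260 CPM in the Dnmt3a+/- libraries, against 2.17, 2.33, 2.01 and 0.782 CPM in the WT libraries. WT replicate 4 lay among the Dnmt3a+/- libraries, and the log2 fold change was -1.50 (SE 0.46, edgeR adjusted p = 0.647). Ndufb5, an accessory subunit of complex I, was at 1.32, 1.61, 1.27 and 1.04 CPM in the Dnmt3a+/- libraries, against 2.17, 1.95, 2.45 and 2.28 CPM in the WT libraries. Here the groups did not overlap, as in 2.54% of all genes, and the log2 fold change was -0.76 (SE 0.23, edgeR adjusted p = 0.647). Uqcrb, a subunit of complex III, averaged 2.30 ± 0.37 CPM in the Dnmt3a+/- libraries and 3.32 ± 0.75 CPM in the WT libraries (SD, n = 4 each; log2 fold change -0.53, edgeR adjusted p = 0.986).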

How the data were processed

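Platelet RNA of 8 mice was measured in 8 libraries. Per the labels' protocols, libraries were made with a stranded kit from polyadenylated RNA, and the tools named in the submitters' processing notes are cutadapt, STAR, RSEM and DESeq2, with mm10 as the build. No source used here names the annotation release or the strand setting of the counting. The authors deposited 1 estimated count per gene and library, written as whole numbers, and 1 TPM per gene and library, corrected for length. The estimated counts depend on how reads fitting several genes were divided, which bears on the nuclear copies.

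Counts were tested as deposited with edgeR 4.0.16 in R 4.3.3 (TMM factors, filterByExpr with a minimum count of 10 and a minimum total of 15, quasi-likelihood F test, two-sided), with Benjamini-Hochberg adjustment over the 7362 genes kept and a threshold of 0.05. Of the members, 15 passed the filter. CPM divides counts by the TMM-scaled library total. The edgeR test gives no standard error, so SE is the absolute log2 fold change divided by the square root of the F statistic. Alternatives used RLE factors, nuclear library sizes, no filter, DESeq2 1.42.0, limma 3.58.1 on log2(TPM + 1), a replicate block, each library left out in turn and, chosen after seeing the data, counts summed with nuclear copies and combinations of these with no filter and without WT replicate 3. Copies were found with blastn 2.17.0 in GENCODE M21, which holds 55141 of the 55487 identifiers. The steps were tested on simulated data.

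Every member was reported, and members with at least 10 counts in some library were given by value. Of nuclear pathway lists, up to 2 genes per direction with the smallest unadjusted p under 0.05 were named, and Polrmt, Tfam, Lrpprc and Slirp always. The members, lists and tests were chosen with earlier results of these data known, so no p was computed over the members as a set. No 2 libraries agreed within sampling noise (smallest chi-square over its degrees of freedom 12.3), and each counted as 1 replicate. The labels call the samples biological replicates.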

Additional observations from a re-analysis of the deposited data

Results flagged for a closer look

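Groups of 4 libraries were screened for a single value far from the others by Dixon's ratio. Of 54 groups examined 6 passed, where chance flags about 1 in 20 groups if they are independent. These were not, since they include members together with shares and ratios over the same genes. Most flags fell on WT replicate 3, so the number that passed cannot be set against that rate. In the WT group, WT replicate 3 stood apart in mt-Atp8 at 2150 CPM with the nearest library at 728 CPM, in mt-Co3 at 6590 CPM with the nearest at 2700 CPM, and in mt-Nd4l at 1590 CPM with the nearest at 467 CPM. The values for mt-Co3 and mt-Nd4l leave out their nuclear copies. With the copies, WT replicate 3 was at 18480 CPM for mt-Co3 with the nearest WT library at 9776 CPM. For mt-Nd4l it was at 2152 CPM with the nearest at 684 CPM, and neither sum was among the groups that passed. The same library stood apart in the share of counts in the 37 mitochondrially encoded genes, at 24.8% with the nearest WT library at 17.8%. It also stood apart in the ratio of mt-Rnr2 to mt-Rnr1 counts, at 1.47 with the nearest at 1.81, where it lay within the range of the Dnmt3a+/- libraries. In the Dnmt3a+/- group, replicate 2 had 13.0% of counts in the rRNAs with the nearest library at 14.0%, and this value lay within the WT range.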

How the results depend on the processing

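With all 8 libraries and the filter, 0 genes and 0 members were called by edgeR. No filter on low counts gave 250 genes and 3 members, no filter without WT replicate 3 gave 256 genes and 1 member, and no filter with nuclear copies summed gave 3 members. DESeq2 called 15 genes and 0 members. Leaving out each library in turn gave 0 to 135 genes (135 without WT replicate 1) and 0 members. Over those leave-one-out fits the median log2 fold change of the members ran from -0.793 to -0.0075, the last of these without WT replicate 3, and the difference in their share of counts, Dnmt3a+/- minus WT, from -1.79 to 0.908 percentage points. The median was above 0 in the other 3 fits without WT replicate 3, at 0.019 with no filter, 0.0076 with copies summed and 0.031 with both. Single genes changed sign with 1 library. Leaving out each library in turn gave -0.0195 to 0.058 for mt-Rnr2, -1.15 to 0.017 for mt-Nd1, -0.331 to 0.015 for mt-Co2, -0.621 to 0.027 for mt-Nd4 and -0.800 to 0.051 for mt-Nd5, the positive values of the last 4 without WT replicate 3. With no filter and WT replicate 3 left out, values were 0.041 for mt-Nd1, 0.038 for mt-Co2, 0.019 for mt-Nd4l, 0.052 for mt-Nd4, 0.075 for mt-Nd5 and 0.022 for mt-Cytb. With copies summed and WT replicate 3 left out, they were 0.018 for mt-Nd1, 0.064 for mt-Co2, 0.124 for mt-Co3, 0.0076 for mt-Nd3, 0.028 for mt-Nd4 and 0.052 for mt-Nd5. With no filter besides, they were 0.039 for mt-Nd1, 0.087 for mt-Co2, 0.019 for mt-Atp6, 0.146 for mt-Co3, 0.031 for mt-Nd3, 0.051 for mt-Nd4, 0.074 for mt-Nd5 and 0.021 for mt-Cytb. Fewer libraries entered the fits without WT replicate 3, and the cause of the other changes was not tested.

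The replicate numbers in the titles did not pair the libraries, since same-numbered libraries had correlations of -0.0371, 0.0814, 0.158 and -0.168. A fit with the replicate block called 0 genes, with a median of -0.44 over the members. At this depth, the counts of Polrmt, Tfam and Slirp were too few to compare, and the 22 tRNAs had none.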
